A study of Homo sapiens with 9 samples.

Results

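The BCL2 family decides at the mitochondrion whether a cell survives or dies, and 10 of its genes were followed here in human granulosa tumour cells exposed to insulin. They were taken from the count table by a list of names, with no threshold on their values: the survival genes BCL2, BCL2L1, BCL2L2 and MCL1, the pore-forming effectors BAX, BAK1 and BOK, and the BH3-only genes BAD, BID and BCL2L11. All 10 were found among the 15983 genes of the count table, and all 10 were among the 12665 genes that passed a filter on low counts.

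KGN is a line from a human granulosa cell tumour, labelled wild type and as ovarian granulosa cells, so every library comes from 1 tumour-derived line. Cultures were kept in DMEM with fetal bovine serum, fasted for 12 h and then exposed for 72 h to solvent (control), to insulin at 0.5 µg/ml (lower dose) or to insulin at 1 µg/ml (higher dose). The control therefore shares the fasting and the 72 h of culture with the insulin groups, and whether serum was present during the exposure is not given in the sources used here. Each group has 3 RNA-seq libraries, 9 in all. Since no label says that the libraries of a group are separate cultures, each p-value reflects the spread between the sequenced samples alone, and that spread may be technical.

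Library totals ran from 18965722 to 20446405 counts. Of the 5 granulosa markers, FOXL2, the ovarian somatic transcription factor, stood at 26.2 ± 2.02 CPM (read counts scaled to library size, SD, n = 9) and the FSH receptor gene FSHR at 18.1 ± 2.43 CPM, while INHA, which encodes inhibin alpha, stood at only 0.655 ± 0.266 CPM. The 5 markers summed to 59.1 to 73.1 CPM in the control, 61.3 to 66.9 CPM at the lower dose and 63.5 to 72.6 CPM at the higher dose. The 6 markers of other ovarian and blood cells summed to 2.47 to 3.31, 2.78 to 3.77 and 3.33 to 4.62 CPM in the same order. Among those 6, the theca gene CYP17A1 and the red cell gene HBB had 1 count each over all libraries and the epithelial gene EPCAM had 7, while the leukocyte gene PTPRC stood at 1.49 ± 0.277, 1.53 ± 0.594 and 2.35 ± 0.744 CPM in the control, lower and higher dose (SD, n = 3 each). INHA stood at 0.399 ± 0.161, 0.69 ± 0.265 and 0.877 ± 0.115 CPM in the same order. At the higher dose both were under 0.05 before adjustment, as were 2.35% of all genes, but not called (edgeR adjusted p = 1). Their part in the values of the family was not tested. In such bulk samples, fewer cells of a type and less RNA per cell cannot be told apart.

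Survival members of the family hold the effectors and the BH3-only proteins in check by binding them in a surface groove. When BH3-only proteins accumulate or are activated, the groove is occupied, BAX and BAK1 assemble in the outer mitochondrial membrane, and cytochrome c leaves the mitochondrion to start the caspase cascade. In the ovary this switch is known for its part in granulosa cell death during follicle atresia. Insulin and IGF signalling through AKT is known to act on the family in part at the protein level, for example by phosphorylation of BAD. RNA counts do not measure this, and no protein was measured here.

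The segment that the family shares is the BH3 motif, the helix that inserts into the groove. Shown here is the coding sequence over its core in the principal GENCODE transcript of each member, because it is what makes the 10 genes 1 family and shows how far they differ at the base level. Each stretch is 30 bases long, 5′ to 3′ on the coding strand, and the capitals mark 6 codons: a codon for leucine or methionine, any 3 codons, a codon for glycine or serine, and a codon for aspartate.
BCL2: ctgaccCTCCGCCAGGCCGGCGACgacttc
BCL2L1: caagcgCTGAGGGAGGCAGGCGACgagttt
BCL2L2: caagccATGCGGGCAGCTGGAGATgagttc
MCL1: gagaccTTACGACGGGTTGGGGATggcgtg
BAX: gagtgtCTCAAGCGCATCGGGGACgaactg
BAK1: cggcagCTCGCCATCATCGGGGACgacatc
BOK: gcggtgCTGCTGCGCCTGGGCGATgagctg
BAD: cgcgagCTCCGGAGGATGAGTGACgagttt
BID: aggcacCTCGCCCAGGTCGGGGACagcatg
BCL2L11: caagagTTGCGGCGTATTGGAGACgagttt

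The first codon of the core encodes leucine in 9 of the 10 members and methionine in BCL2L2, and the fifth encodes glycine in 9 and serine in BAD. Searched in the coding frame only, the pattern occurred once in 9 members and 2 times in BID, of which the match at codons 136 to 141 is printed. The pattern is short, and 30.7% of 19695 coding genes hold it at least once, so a match alone describes letters and not a working BH3 motif. The core begins at codon 97 of 239 in BCL2, at codon 90 of 233 in BCL2L1 and at codon 213 of 350 in MCL1. It begins at codon 63 of 192 in BAX, at codon 78 of 211 in BAK1 and at codon 92 of 138 in BCL2L11.

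On hg38, the stretch lies within 1 coding exon in 9 members and spans a splice junction in BOK. BCL2 lies on the minus strand at chr18:63123346-63320128, and its stretch at chr18:63318355-63318384. BCL2L1 lies on the minus strand at chr20:31664452-31723989, BCL2L2 on the plus strand at chr14:23298790-23311759, and MCL1 on the minus strand at chr1:150574551-150579738. BAX lies on the plus strand at chr19:48954815-48961798, with its stretch at chr19:48955781-48955810. BAK1 lies on the minus strand at chr6:33572547-33580293 and BOK on the plus strand at chr2:241551424-241574138. BAD lies on the minus strand at chr11:64269830-64284704, BID on the minus strand at chr22:17734138-17774770, and BCL2L11 on the plus strand at chr2:111119378-111168447, so BOK and BCL2L11 share a chromosome.

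The members differed far more from each other than between the groups. Levels are compared between genes in the deposited FPKM (counts scaled by gene length and sequencing depth), averaged over all 9 libraries. BAX was the most abundant per length at 157 ± 9.09 FPKM (SD, n = 9), followed by MCL1 at 146 ± 5.57 FPKM. BCL2L1 stood at 53.7 ± 3.25 FPKM, BAD at 37.5 ± 2.66 FPKM and BOK at 23.1 ± 1.24 FPKM. BID, BAK1 and BCL2L2 lay between 7.92 and 13.4 FPKM. BCL2L11 stood at 1.84 ± 0.127 FPKM and BCL2, the founding member, came last at 0.758 ± 0.0384 FPKM. BAX was above MCL1 in 8 of 9 libraries, and each of the other neighbours in this order kept its place in 9 of 9.

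**Figure D1:**
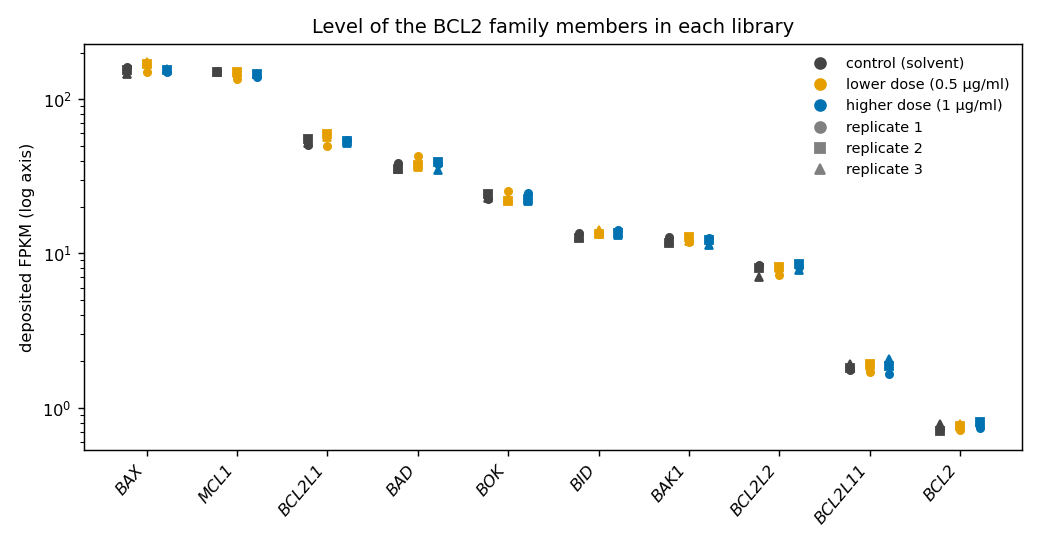
FPKM of the 10 members in each of the 9 libraries on a log axis, coloured by group and shaped by replicate. The members span from 0.758 FPKM for BCL2 to 157 FPKM for BAX on average, while the 3 groups of each member lie close together.

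Among all 15983 genes, BAX and MCL1 ranked in the top 1.96% and 2.13% by mean FPKM, and BCL2L1 in the top 6.58%. BCL2L11 and BCL2 ranked in the top 61.6% and 69.5%, below the middle of the table. The order rests in part on the gene length behind the deposited FPKM, which is 894 bases for BAX and 3950 bases for MCL1. With the union of GENCODE exons as the length, MCL1 led at 132 CPM per kilobase and BAX followed at 54.3. With the longest coding transcript, MCL1 stood at 147 and BAX at 103 on the same scale. Under both lengths the first and second places were exchanged, BCL2L1 kept its place, and BCL2L11 and BCL2 stayed last.

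Across the 9 libraries, each member's CPM varied by 3.74% to 7.42% (SD as a share of the mean). For 8 of the 10 this exceeded the spread that counting alone gives, and for 6 it was less than 2 times that spread. MCL1 varied least and BAD most.

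No member differed between the groups past the threshold. The edgeR quasi-likelihood test, with p-values adjusted by Benjamini-Hochberg over the 12665 genes tested, called 0 of 10 members at an adjusted p under 0.05 in each of the 3 pairwise comparisons and in the test over all 3 groups. The same test called 0 of 12665 genes, or 0%, in each of the 4. At an unadjusted p under 0.05 it found 0 of 10 members in every comparison, against 6.08% of all genes for the lower dose against control, 2.35% for the higher dose against control, 5.64% between the doses and 4.43% over the 3 groups. DESeq2 also called 0 members and found 0 at an unadjusted p under 0.05 in all 4. It called 0 genes in the pairwise comparisons and 1 gene over the 3 groups, and before adjustment 573, 173, 487 and 381 genes were under 0.05. With edgeR, the lowest adjusted p of a member was 0.801 for the lower dose, 1 for the higher dose, 0.851 between the doses and 0.982 over the 3 groups.

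The size of a difference between the sequenced libraries was described by 95% intervals. They rest on a spread that may be technical, so they do not bound a change between separate cultures. They were also not adjusted for being read together. All 10 members had a 95% interval within 1.25-fold either way in each pairwise comparison, against 70.2% of all genes for the lower dose, 72.9% for the higher dose and 70.6% between the doses. These shares over all genes were not matched to the members by count. The widest intervals of the members belonged to BCL2, the member with the fewest counts. They ran from 0.872- to 1.22-fold at the lower dose and from 0.898- to 1.25-fold at the higher dose. The fold change was above 1 for 9 of 10 members at the lower dose. The median log2 fold change was 0.03, against 0.00 over all genes, of which 6575 of 12665 were above 0. Among the 9, BAK1, BCL2L2, BCL2L11 and BOK lay between 0.0045 and 0.0185, with standard errors of 0.064 to 0.096. Each of them changed sign in at least 1 fit with a library left out. At the higher dose the fold change was above 1 for 6 of 10 (median 0.02, with 6313 of all genes above 0). Between the doses it was above 1 for 3 of 10 (median -0.03, with 6270 above 0). Both dose comparisons use the same 3 control libraries.

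**Figure D2:**
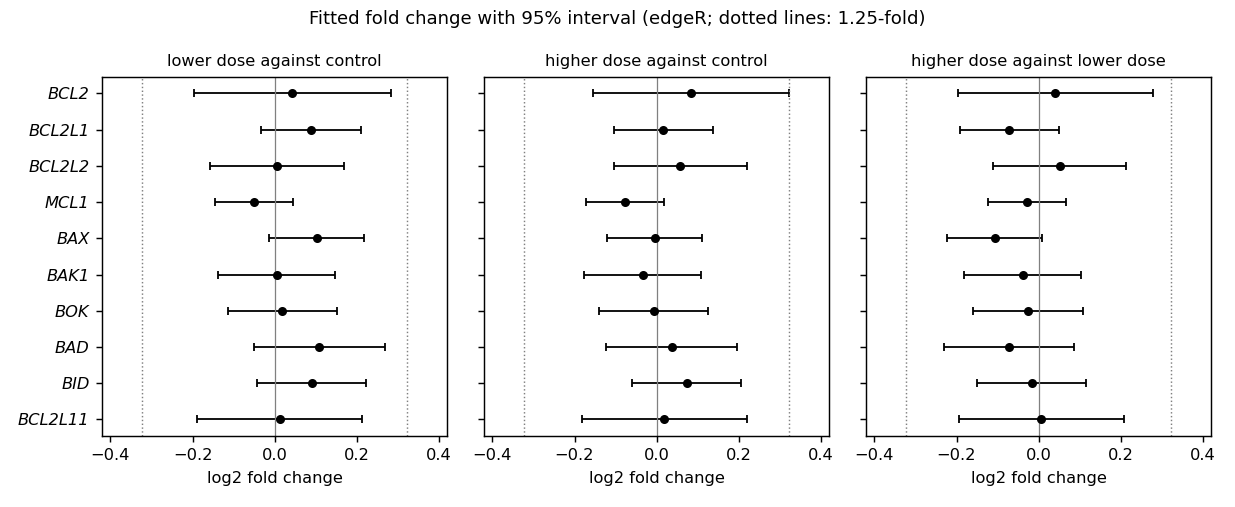
Fitted log2 fold change of each member with its 95% interval in the 3 pairwise comparisons (edgeR). All 30 intervals lie inside the dotted lines at 1.25-fold and all include 0.

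MCL1, a short-lived survival protein that binds BAK1 and BCL2L11 among others, carried most of the survival transcripts. Its CPM was 604, 591 and 590 in the control libraries, 540, 599 and 585 at the lower dose and 552, 569 and 569 at the higher dose. All 3 libraries of the higher dose lay below all 3 controls, while the lower dose overlapped both. MCL1 was the 1 member of 10 whose groups did not overlap at the higher dose, where 7.73% of all genes did not overlap. For the lower dose and between the doses, 0 of 10 members were without overlap, against 10.7% and 12.2% of all genes. The higher dose stood at 0.948-fold the control (95% interval 0.887 to 1.01, edgeR adjusted p = 1), and the lower dose at 0.966-fold (0.905 to 1.03, adjusted p = 0.847).

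BCL2L1, which encodes the survival protein BCL-XL and, by alternative splicing, a death-promoting short form, had 148, 162 and 151 CPM in the control, 147, 176 and 168 at the lower dose and 158, 157 and 152 at the higher dose. The lower dose held both the lowest and the highest library of the 9, so the groups overlapped. The fold change was 1.06 at the lower dose (95% interval 0.978 to 1.16, edgeR adjusted p = 0.809) and 1.01 at the higher dose (0.93 to 1.10, adjusted p = 1). The gene counts do not separate the splice forms. Of its exon bases, 43.0% are shared with the antisense transcript ABALON in GENCODE, and the strand setting of the counting is not given in the sources used here.

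BCL2L2, which encodes the survival protein BCL-W, had 29.7, 28.2 and 24.6 CPM in the control, 25.7, 28.8 and 28.4 at the lower dose and 28.7, 30.0 and 27.2 at the higher dose. Control 3 library was the lowest of the 9, and the groups overlapped. Fold changes were 1.00 (95% interval 0.897 to 1.12) at the lower dose and 1.04 (0.93 to 1.16) at the higher dose. A read-through transcript, BCL2L2-PABPN1, shares 19.4% of its exon bases and has 25 counts over all 9 libraries, so the split of reads between the 2 genes is uncertain.

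BCL2, the survival gene first found at a lymphoma translocation, had only 139 to 164 counts per library. Its CPM was 7.34, 7.11 and 7.94 in the control, 7.34, 7.71 and 8.02 at the lower dose and 7.50, 8.14 and 8.08 at the higher dose. The group means of 7.46 ± 0.428, 7.69 ± 0.343 and 7.91 ± 0.352 CPM (SD, n = 3 each) belonged to groups that overlapped. The fold change was 1.03 (95% interval 0.872 to 1.22, edgeR adjusted p = 0.961) at the lower dose and 1.06 (0.898 to 1.25, adjusted p = 1) at the higher dose. Its variation over the 9 libraries, 4.92%, was below the 8.07% that counting alone gives at this depth.

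BAX, the effector that moves from the cytosol to the mitochondrion and forms pores, had 145, 138 and 129 CPM in the control, 136, 151 and 155 at the lower dose and 132, 139 and 139 at the higher dose. Libraries 2 and 3 of the lower dose were the highest of the 9, and library 1 lay among the controls. BAX had the smallest p of the members against the lower dose, with a fold change of 1.07 (95% interval 0.991 to 1.16, edgeR adjusted p = 0.801). At the higher dose it stood at 0.997-fold the control (0.92 to 1.08, adjusted p = 1), and the higher dose at 0.928-fold the lower dose (0.857 to 1.01, adjusted p = 0.851).

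BAK1, the effector that resides in the mitochondrial membrane, had 29.3, 26.7 and 27.8 CPM in the control, 27.4, 29.1 and 27.5 at the lower dose and 28.3, 27.7 and 25.8 at the higher dose. The groups overlapped throughout. Against control, the fold was 1.00 (95% interval 0.909 to 1.11) at the lower dose and 0.976 (0.885 to 1.08) at the higher dose. With the deposited lengths, the ratio of BAX to BAK1 FPKM was 12.9 ± 0.827 (SD, n = 9). That size depends on gene length. Per kilobase, BAX stood at 54.3 CPM and BAK1 at 12.5 with the exon union, and at 103 and 12.5 with the longest coding transcript.

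BOK, an effector-like member first isolated from ovary and governed largely by protein turnover, had 65.5, 70.0 and 66.3 CPM in the control, 74.1, 63.9 and 66.5 at the lower dose and 71.9, 65.4 and 63.6 at the higher dose. The first library of the lower dose was the highest of the 9. The group means were 67.3 ± 2.40, 68.2 ± 5.30 and 67.0 ± 4.40 CPM (SD, n = 3 each), and the fold change was 1.01 (95% interval 0.924 to 1.11) and 0.995 (0.907 to 1.09) at the lower and higher dose. BOK shares 7.41% of its exon bases with the antisense gene BOK-AS1.

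**Figure D3:**
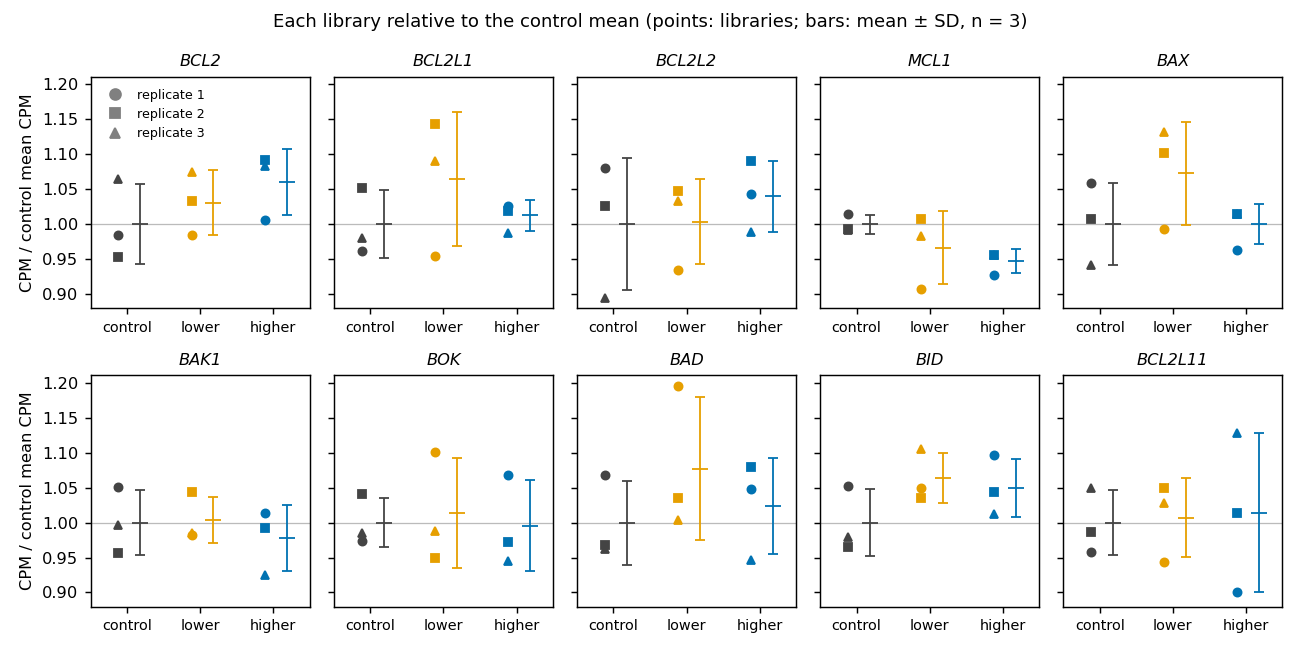
CPM of each member in each library divided by that member's control mean, with the group mean and SD (n = 3) beside the points. MCL1 is the only panel in which the higher dose lies wholly below the control. The first library of the lower dose (circle) is at an end of its group in 9 of 10 panels. In a group of 3 every library but the middle one is at an end, and the other libraries were not counted.

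BAD, a BH3-only protein that survival kinases such as AKT inactivate by phosphorylation, had 36.1, 32.7 and 32.5 CPM in the control, 40.4, 35.0 and 33.9 at the lower dose and 35.4, 36.5 and 32.0 at the higher dose. The first library of the lower dose was the highest of the 9, and the groups overlapped. Its fold change was 1.08 (95% interval 0.966 to 1.20, edgeR adjusted p = 0.823) at the lower dose and 1.03 (0.918 to 1.15, adjusted p = 1) at the higher dose. On the opposite strand, GPR137 shares 23.7% of its exon bases.

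BID, which links death receptors to the mitochondrion after cleavage by caspase 8, had 36.1, 33.1 and 33.6 CPM in the control, 36.0, 35.5 and 37.9 at the lower dose and 37.6, 35.8 and 34.7 at the higher dose. Controls 2 and 3 were the lowest of the 9, and control 1 lay among the insulin libraries. Its fold change was 1.06 (95% interval 0.97 to 1.17, edgeR adjusted p = 0.823) at the lower dose and 1.05 (0.959 to 1.15, adjusted p = 1) at the higher dose.

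BCL2L11, which encodes BIM and is a known target of FOXO factors that insulin signalling restrains, had 13.5, 13.9 and 14.8 CPM in the control, 13.3, 14.8 and 14.5 at the lower dose and 12.7, 14.3 and 15.9 at the higher dose. The higher dose held both the lowest and the highest library of the 9. The fold change was 1.01 in both comparisons, with a 95% interval of 0.877 to 1.16 at the lower dose and 0.881 to 1.16 at the higher dose. Its exons share 10.9% of their bases with the non-coding gene MIR4435-2HG on the opposite strand.

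The first library of the lower dose stood apart from the others of its dose. Compared by chi-square over genes, the statistic divided by its degrees of freedom was 8.01 and 8.46 against its 2 companions and 2.19 between those 2. Other groups were spread too: the same statistic ran from 3.82 to 6.71 between control libraries and from 2.62 to 5.28 between higher-dose libraries. The lower dose thus held both the largest values and the smallest. The first library had the highest BOK and BAD and the lowest BCL2L1 and MCL1 of all 9 libraries. Such extremes were not particular to it: the third library of the higher dose had the highest BCL2L11 and the lowest BAK1, BOK and BAD. Without the first library of the lower dose, the log2 fold change at that dose was 0.16 for BCL2L1 (edgeR adjusted p = 0.604) and 0.16 for BAX (adjusted p = 0.639). These 2 of 10 members were then under 0.05 before adjustment, as were 6.68% of all genes in that fit, and neither was called. In the same fit the log2 fold change of BAD was 0.03, against 0.11 with all libraries, and that of MCL1 was -0.01, against -0.05. BOK turned from 0.02 to -0.05. Between the doses, the log2 fold change without it was -0.14 for BCL2L1 (edgeR adjusted p = 0.447) and -0.16 for BAX (adjusted p = 0.377), again with both under 0.05 before adjustment, against 7.45% of all genes. MCL1 stood at -0.07 there, against -0.03 with all libraries, and BAD at 0.01, against -0.07. Without the first control, BAX at the lower dose was under 0.05 before adjustment (edgeR adjusted p = 0.417), as were 10.4% of all genes.

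Levels were also summed by role, and these sums and shares were not tested. The 4 survival genes summed to 212 ± 2.31 FPKM in the control, 209 ± 13.9 at the lower dose and 205 ± 2.12 at the higher dose (SD, n = 3 each). Every library of the higher dose (203, 208 and 205 FPKM) lay below every control (212, 214 and 209), while the lower dose (193, 220 and 213) spanned both. MCL1, the largest part of the sum, also lay lower in every higher-dose library than in every control. Of all genes, 7.73% were without overlap in that comparison. The 3 effectors summed to 189 ± 8.61, 199 ± 10.2 and 189 ± 2.29 FPKM in the same order. The 3 BH3-only genes summed to 51.1 ± 2.58, 54.4 ± 3.25 and 52.8 ± 2.70 FPKM. Of the summed FPKM of the 10 members, the survival genes thus held 46.9 ± 0.975% in the control, 45.1 ± 1.13% at the lower dose and 46.0 ± 0.146% at the higher dose. These shares rest on the deposited gene lengths and were not computed with others. With the exon union as the length, BAX moved from 157 to 54.3 per kilobase and MCL1 from 146 to 132. The sums leave out BH3-only genes outside the 10, such as BBC3 at 20.6 FPKM and PMAIP1 at 14.7 FPKM. The effector share was 42.5, 42 and 41% in the control, 42.8, 42.7 and 43.9% at the lower dose and 41.9, 42 and 42.7% at the higher dose. The lower dose did not overlap the control in this share, which is 1 of several untested sums, shares and ratios. Of all genes, 10.7% were without overlap in that comparison.

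Within the survival genes, MCL1 made up 70.1 ± 1.10% of the summed FPKM over the 9 libraries and BCL2 only 0.363 ± 0.0213%. The ratio of BAX to BCL2, often quoted as a death index, was 224, 220 and 184 in the control, 210, 222 and 219 at the lower dose and 200, 193 and 196 at the higher dose. All 6 insulin libraries lay inside the range of the controls, but that range rests on control 3: without it, 1 of the 6 did. The group means were 209 ± 21.9, 217 ± 6.31 and 196 ± 3.46 (SD, n = 3 each). Its size depends on gene length: the ratio of the mean levels was 207 with the deposited lengths, 83.0 with the exon union and 100 with the longest coding transcript. BCL2L1 stood at 0.348 ± 0.0201 of MCL1 in the control, 0.383 ± 0.0143 at the lower dose and 0.372 ± 0.0132 at the higher dose. BCL2L11 stood at 0.0126 ± 0.000811 of MCL1 over all 9 libraries.

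**Figure D4:**
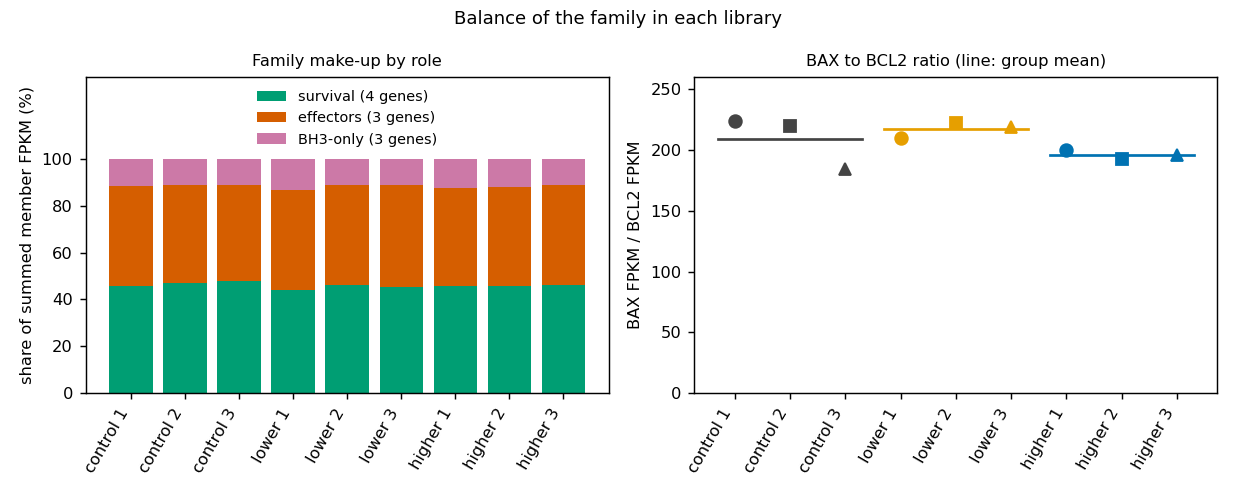
Left, share of the summed FPKM of the 10 members held by each role in each library. Right, ratio of BAX to BCL2 FPKM in each library with the group means of 209, 217 and 196 as lines. Both panels rest on the deposited gene lengths.

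The wider death pathway was described by 6 further lists, 68 genes in all, and 0 genes of any list were called in any comparison with edgeR. Of 13 other BCL2 family and BH3-only genes, 7 were tested. The survival genes BCL2A1 and BCL2L10 had 1 and 17 counts over all 9 libraries, and the BH3-only genes BIK and HRK had 4 and 7. PMAIP1, which encodes the MCL1-binding BH3-only protein NOXA, had 31.5, 30.2 and 29.0 CPM in the control, 30.8, 27.8 and 25.2 at the lower dose and 29.5, 27.1 and 22.3 at the higher dose. Its groups overlapped, and the higher dose stood at 0.87-fold the control (95% interval 0.763 to 0.992, edgeR adjusted p = 1). PMAIP1 was under 0.05 only before adjustment there, as were 2.35% of all genes. BBC3, which encodes PUMA, stood at 49.1 ± 1.57, 52.4 ± 7.02 and 45.0 ± 3.10 CPM in the control, lower and higher dose (SD, n = 3 each). Between the doses its fold was 0.858 (95% interval 0.763 to 0.965, edgeR adjusted p = 0.85), also under 0.05 before adjustment, as were 5.64% of all genes. The most abundant gene of the list per length was the mitophagy receptor gene BNIP3, at 98.3 FPKM. BNIP3 had 152 to 155 CPM in the control and 140 to 149 at the higher dose, without overlap. The same held for 7.73% of all genes. The fold of BNIP3 there was 0.947 (95% interval 0.841 to 1.07). Its relative BNIP3L had folds of 0.945 (95% interval 0.874 to 1.02) and 0.965 (0.892 to 1.04) at the lower and higher dose.

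Downstream of the pore, 11 of 11 release and apoptosome genes and 9 of 9 caspase and nuclease genes were tested. In either list, 0 reached an unadjusted p under 0.05 with edgeR in any pairwise comparison. Over all genes 6.08%, 2.35% and 5.64% did so for the lower dose, the higher dose and between the doses. CYCS, which encodes cytochrome c, stood at 88.8 ± 5.46, 86.1 ± 2.37 and 84.0 ± 5.93 CPM (SD, n = 3 each) in the control, lower and higher dose. CASP9, the initiator caspase of the apoptosome, stood at 10.4 ± 0.985, 11.2 ± 0.184 and 11.5 ± 0.476 CPM in the same order. CASP2 had the smallest p of its list at both doses, with folds of 0.924 (95% interval 0.839 to 1.02) and 0.945 (0.859 to 1.04). DFFB, a caspase-activated nuclease gene, had folds of 1.13 (0.939 to 1.37) and 1.01 (0.831 to 1.22). ENDOG, a mitochondrial nuclease gene, had folds of 1.12 (0.935 to 1.35) and 1.09 (0.911 to 1.31). MTCH2, an outer membrane gene whose product binds cleaved BID, had folds of 0.957 (0.871 to 1.05) and 0.981 (0.894 to 1.08). VDAC1, a channel of the outer membrane, and the inflammatory caspase gene CASP4 were the most abundant of their lists per length, at 116 and 69.3 FPKM.

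Among the inhibitors of apoptosis, 6 of 7 were tested and 0 reached an unadjusted p under 0.05 with edgeR. In the pairwise comparisons 2.35% to 6.08% of all genes did. BIRC2, which encodes the ubiquitin ligase cIAP1, had 83.8, 81.5 and 81.0 CPM in the control, 73.3, 76.5 and 80.8 at the lower dose and 79.8, 77.1 and 77.2 at the higher dose. Every insulin library lay below every control, with folds of 0.936 (95% interval 0.869 to 1.01, edgeR adjusted p = 0.798) and 0.951 (0.883 to 1.02, adjusted p = 1). Of all genes, 10.7% were without overlap with the control at the lower dose and 7.73% at the higher dose. Both comparisons share the same controls, and BIRC2 was named for its small p. XIAP, a direct caspase inhibitor, had folds of 0.946 (0.869 to 1.03) and 0.98 (0.901 to 1.07). NAIP had only 77 counts over all 9 libraries, and its fold at the higher dose was 0.574 (0.307 to 1.07). Every higher-dose library of NAIP also lay below every control. BIRC5, which encodes the mitotic protein survivin, was the most abundant of the list at 26.0 FPKM.

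Of 13 genes for death receptors, their ligands and adaptors, 11 were tested. Before adjustment, 1 was under 0.05 at the lower dose, 0 at the higher dose and 2 between the doses (edgeR). Over all genes the shares were 6.08%, 2.35% and 5.64% in the same order. TNFSF10, which encodes the ligand TRAIL, stood at 13.4 ± 0.909 CPM in the control and 11.1 ± 2.23 CPM at the lower dose (SD, n = 3 each), a fold of 0.829 (95% interval 0.697 to 0.985, edgeR adjusted p = 0.792) with overlapping groups; it was under 0.05 before adjustment. TNFRSF10C, a decoy receptor of TRAIL, stood at 2.57 ± 0.52 CPM at the lower and 1.57 ± 0.328 CPM at the higher dose, a fold of 0.613 (95% interval 0.423 to 0.891, edgeR adjusted p = 0.85) and under 0.05 before adjustment. TNFRSF10D, another decoy receptor gene, had a fold of 0.849 (0.701 to 1.03) at the higher dose. Between the doses its fold was 0.824 (0.681 to 0.996, edgeR adjusted p = 0.85), also under 0.05 before adjustment. CFLAR, which encodes the caspase 8 inhibitor c-FLIP, had folds of 0.992 (0.912 to 1.08) and 0.959 (0.882 to 1.04). TNFRSF1A, the main TNF receptor gene, was the most abundant of the list at 104 FPKM.

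Of 15 regulators of the members, 14 were tested and 0 reached an unadjusted p under 0.05 with edgeR. In the pairwise comparisons 2.35% to 6.08% of all genes did. AKT2, a kinase of insulin signalling, had folds of 1.07 (0.994 to 1.16) and 1.04 (0.962 to 1.12). FBXW7, which marks MCL1 for degradation, had a fold of 1.12 (0.978 to 1.28, edgeR adjusted p = 1) at the higher dose. YWHAZ, a 14-3-3 gene whose family of proteins holds phosphorylated BAD in the cytosol, was the most abundant of the list at 118 FPKM. BIRC7, FASLG and TP73 were not found by name in the count table, so they were not tested.

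**Figure D5:**
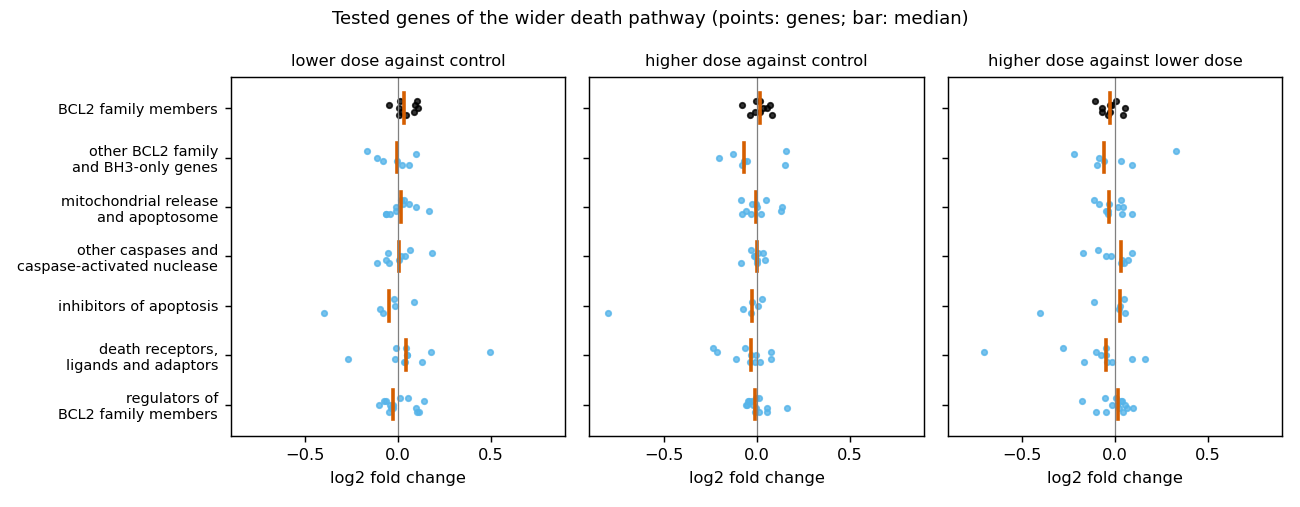
Log2 fold change of every tested gene of the family and of the 6 further lists in the 3 pairwise comparisons, with the list median as a bar. The members lie between -0.11 and 0.11 and the medians of all lists lie near 0, and the points farthest out are low-count genes such as NAIP and TNFRSF10C.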

How the data were processed

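RNA-seq was measured in 9 KGN libraries. The authors deposited raw read counts per gene symbol and FPKM for the same genes. Trimmomatic, HTSeq, DESeq and hg38 are named per the submitters' processing notes, without versions or roles. For the aligner, annotation, strand setting and multiply matching reads, details were not given in the sources used here. Deposited FPKM are the counts rescaled: the implied gene length was whole within 1e-4 for 11053 of 11053 genes with at least 50 counts per library.

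Counts were filtered with filterByExpr (minimum count 10, minimum total 15; 3318 genes removed), scaled by TMM and fitted over 3 groups with edgeR 4.0.16 in R 4.3.3. Quasi-likelihood tests were two-sided, adjusted by Benjamini-Hochberg over every tested gene, with a threshold of 0.05. Intervals use the fitted degrees of freedom. The common biological coefficient of variation was 5.39%. CPM is TMM-scaled. A count of 0 allows 3 counts, or 0.158 CPM at the smallest total; this covers counting error only. The pipeline was tested on simulated data. The alternatives were DESeq2 1.42.0 without the filter, RLE size factors, no filter, a replicate block, leaving out each library, and other gene lengths, the last chosen after seeing the data. Positions, coding sequences and overlaps come from GENCODE release 29 on hg38, with near copies searched by BLAST 2.17.0 (97% identity over 100 bases). The members and lists were chosen with earlier results of these data known. The rule names all 10 members and, per further list, the 2 genes of smallest unadjusted p against control at each dose and the most abundant gene per length. BCL2A1, BCL2L10, BIK and HRK fall outside it and were chosen after their values were seen. Of the genes the rule names, 2 are not reported here.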

Additional observations from a re-analysis of the deposited data

How the results depend on the processing

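No member was called under any alternative run: DESeq2, RLE size factors, no count filter, the replicate block and leaving out each of the 9 libraries. Without the filter, 6, 3, 4 and 8 of all genes were called for the lower dose, the higher dose, between the doses and over 3 groups, against 0 in each with it. Replicate numbers are shared between groups, and whether they pair the libraries was not settled. Of 9 same-number correlations, 2 were over 0.1 (range -0.00289 to 0.191), while pairs of unlike number ranged from -0.14 to 0.0552. With the replicate number as a block, 0 members were called, and the smallest adjusted p of a member was 0.684, 1, 0.712 and 0.855 in the same order. In that edgeR fit 7.67%, 2.71%, 7.04% and 5.91% of all genes were under 0.05 before adjustment. Without the block these shares were 6.08%, 2.35%, 5.64% and 4.43%. Depth limits BCL2 most: at 139 to 164 counts per library, its 95% interval at the higher dose reached 1.25-fold.

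Signs changed only where 1 library was left out. The ranges of the log2 fold change were, for the lower dose, -0.02 to 0.0564 for BCL2L11, -0.0264 to 0.0391 for BAK1, -0.0694 to 0.0631 for BCL2L2 and -0.0456 to 0.0632 for BOK. For the higher dose they were -0.009 to 0.0579 for BCL2L1, -0.0477 to 0.0366 for BAX, -0.0646 to 0.0044 for BAK1, -0.0643 to 0.0979 for BCL2L11, -0.062 to 0.0288 for BOK, -0.0173 to 0.1148 for BCL2L2 and -0.002 to 0.0904 for BAD. Between the doses they were -0.0806 to 0.0387 for BOK, -0.1208 to 0.0088 for BAD, -0.0762 to 0.0858 for BCL2L11, -0.0707 to 0.0032 for MCL1, -0.0485 to 0.0111 for BID and -0.0673 to 0.0002 for BAK1. The cause was not tested. Other gene lengths moved the ratio of BAX to MCL1 from 1.07 to 0.411 (exon union) and 0.704 (longest coding transcript), and that of BOK to BAD from 0.617 to 1.22 and 0.841. The ratio of BAK1 to BID moved from 0.909 to 1.57 with the exon union.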
